A study of Oryctolagus cuniculus with 16 samples.

Results

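Nuclear genes of mitochondrial oxidative phosphorylation were examined in the femoral head of rabbits with a surgical model of Perthes disease and of control rabbits. The genes were taken from the annotation that accompanies the gene table, as every row whose pathway description contains oxidative phosphorylation. The vacuolar proton pump genes that carry the same description, whose symbols start with ATP6, were set aside, and *TCIRG1* would have been set aside too but had 0 rows under that symbol. This left 88 genes of the 20255 in the table, all of them typed as mRNA, after 22 of the 110 rows with the description were removed. By their descriptions, 31 belong to complex I, 5 to complex II, 7 to complex III, 19 to complex IV and 18 to complex V, and 8 lie outside the complexes. Of the 88 genes, 31 are listed under identifiers that start with LOC, and these are named here by their description. The mitochondrially encoded subunits were not analysed here. Some nuclear subunits are also missing from the set, among them *NDUFV1*, *NDUFS7* and *NDUFS8* of complex I, *CYC1* of complex III and *ATP5F1D* of complex V.

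The Perthes group held 5 rabbits operated on at 8 weeks of age, in which a non-absorbable suture was tied around the femoral neck and the ligamentum teres was cut so that the epiphysis lost its blood supply. The labels list these rabbits under the genotype Perthes' disease, although the model is surgical. The control group held 3 rabbits labelled wild type or WT. The age of the controls, whether they had a sham operation, and the time between surgery and tissue collection are not given in the sources used here.

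Oxidative phosphorylation is the last stage of aerobic energy production. Complexes I and II take electrons from NADH and succinate, complex III passes them through cytochrome c to complex IV, which reduces oxygen, and complex V, the ATP synthase, uses the resulting proton gradient to make ATP. A few complex IV subunits and neighbours exist as alternative isoforms, some restricted to muscle or other tissues and some induced by low oxygen through the hypoxia-inducible factors.

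Total RNA was depleted of ribosomal RNA and made into directional libraries, 1 per rabbit. The Perthes libraries held 27331725 to 29461482 counts and the control libraries 26757087 to 28783082. The tissue carried its expected markers, with summed levels of 90463 to 245667 CPM (counts scaled to a common library size with TMM factors) over 12 osteoblast genes and 40770 to 158933 CPM over 13 chondrocyte genes across the Perthes rabbits. The 14 erythroid markers tested were all lower in every Perthes rabbit than in every control, with summed levels of 688.2 to 3621.9 against 7183.2 to 8399.6 CPM, and 2 of them were called lower. Summed neutrophil markers were at 512.0 to 3115.5 against 7814.6 to 23429 CPM, with 5 of 11 called lower. Summed macrophage markers were at 1025.7 to 7478.8 against 882.9 to 1729.2 CPM, with 6 of 10 called higher and 2 lower. Summed fibroblast markers were at 21371 to 69454 against 4766.9 to 21188 CPM (3 of 9 called higher), and summed proliferation genes at 265.3 to 750.6 against 1591.1 to 1818.2 CPM (11 of 12 called lower). Perthes rabbit 4 had the lowest macrophage and the highest chondrocyte and fibroblast levels of its group. Over all 15305 genes tested, 6.21% were called higher and 8.86% lower at an adjusted p below 0.05. In such bulk tissue, fewer cells of a type and less RNA per cell cannot be told apart.

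No member of the oxidative phosphorylation set was called higher or lower in Perthes femoral heads. Of the 88 genes, 81 passed the low-count filter and were tested with edgeR's quasi-likelihood test, and 0 had an adjusted p below 0.05 in either direction. Over all 15305 genes tested, 15.1% were called, 6.21% (951) as higher and 8.86% (1356) as lower in Perthes disease. Scaled by library totals alone, 678 genes were called higher and 1705 lower, and still 0 members. Without adjustment, 5 of the 81 members were higher and 0 were lower at a p below 0.05, whereas 15.3% of all genes were higher and 16.6% lower. The smallest adjusted p of a member was 0.0837, for *NDUFA4L2*. DESeq2 gave an adjusted p for 85 members and called 1 of them higher, *NDUFA4L2*, where 9.74% of all its genes were called higher, and it called 0 lower.

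The fold changes of the members were also small in size. Their median log2 fold change, Perthes minus control, was 0.18 where that of all genes was 0.02, the quartiles lay at 0.02 and 0.33, and the whole range ran from -1.80 for *ATP4A* to 1.73 for *COX4I2*. The fold change lay above 0 for 64 of 81 members (79.0%), against 51.6% of all genes. The median absolute log2 fold change was 0.20 over the members and 0.42 over all genes. The 95% interval of the fold change lay wholly between a 2-fold decrease and a 2-fold increase for 63 of 81 members (77.8%) and for 44.4% of all genes. The members also varied less between rabbits of a group, with a median within-group SD of 0.314 on the log2 scale against 0.381 over all genes. This was not particular to the members. The lists for the mitochondrial ribosome, tricarboxylic acid cycle and protein import, described below, had SDs of 0.269, 0.255 and 0.243. Their intervals lay within a 2-fold change for 87.1%, 90.5% and 80.8% of genes. Complex IV assembly factors did not vary less than the members, with an SD of 0.321 and 73.7% of intervals within a 2-fold change. With so few rabbits, a missing call does not show that a gene was equal in both groups, and the intervals give the sizes that remain possible.

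**Figure D1:**
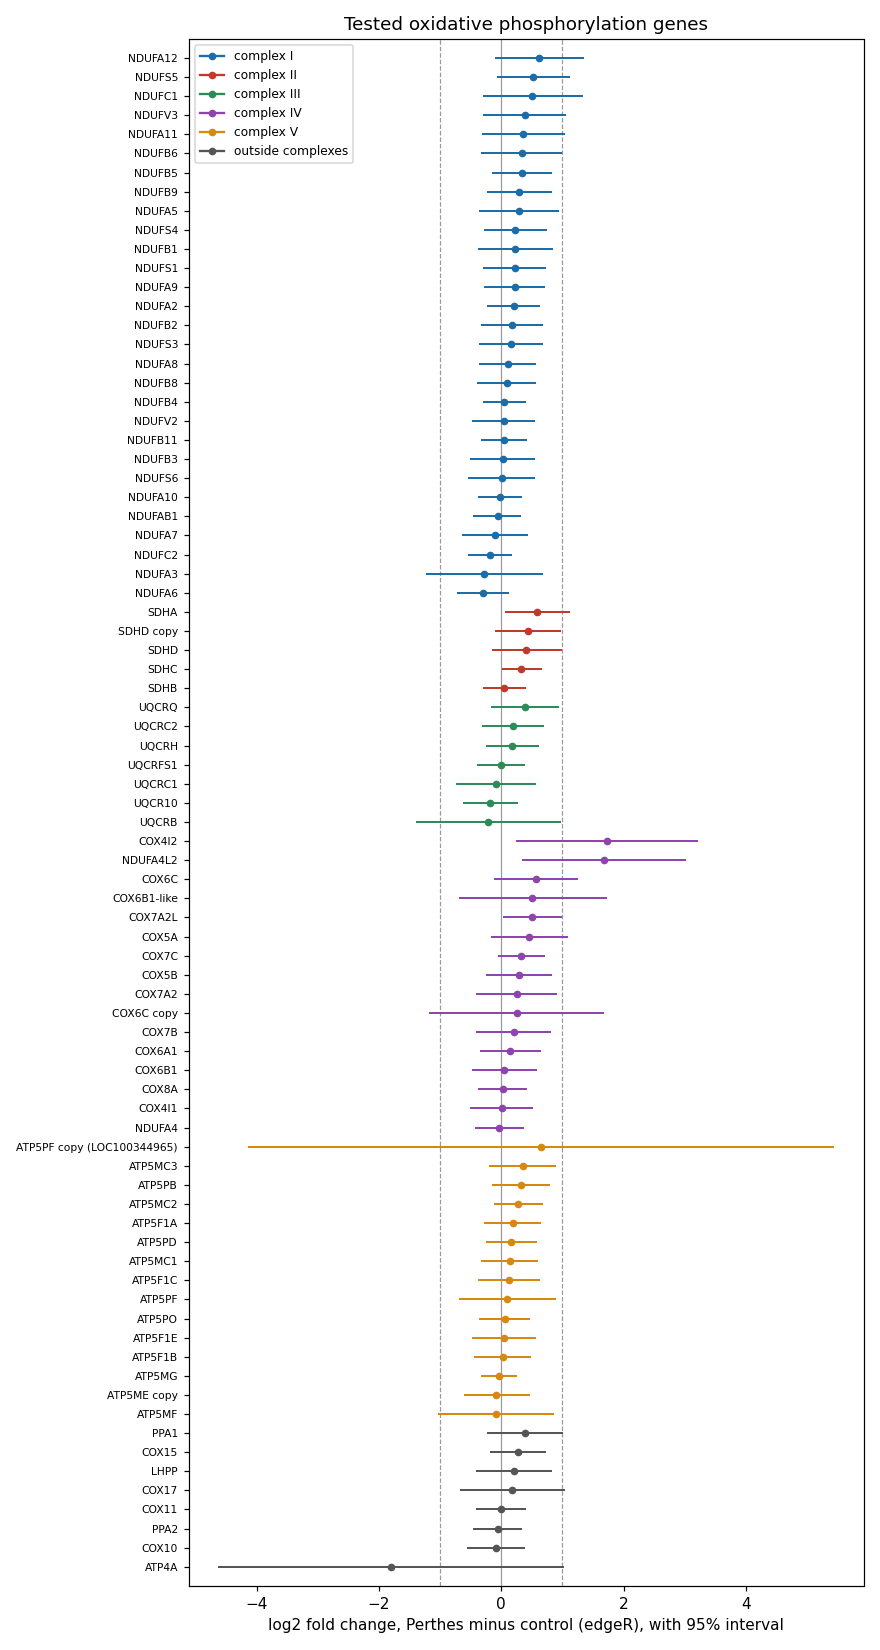
Log2 fold change (Perthes minus control, edgeR, 5 and 3 rabbits) on the horizontal axis for the tested members, 1 of which is not drawn, sorted within complex, with bars for the 95% interval and dashed lines at a 2-fold change either way. Most intervals stay between the dashed lines, and *COX4I2* and *NDUFA4L2* lie farthest to the right.

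Complex I, the NADH dehydrogenase that feeds most electrons into the chain, had 30 of its 31 listed genes tested, with a median log2 fold change of 0.17 and a range from -0.30 to 0.62. Of its catalytic core, *NDUFS1*, *NDUFS3* and *NDUFV2* had log2 fold changes of 0.22, 0.16 and 0.04, and the 3 intervals stayed within a 2-fold change.

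The lowest p values in complex I belonged to 2 accessory subunits. *NDUFS5* was at 25.3, 17.4, 14.8, 11.8 and 19.0 CPM in the Perthes rabbits and at 13.0, 9.80 and 14.0 CPM in the controls (log2 fold change 0.52, SE 0.26, adjusted p 0.198). *NDUFA12* was at 23.1, 10.4, 15.6, 9.46 and 19.5 CPM against 8.93, 9.49 and 12.1 CPM (log2 fold change 0.62, SE 0.32, adjusted p 0.21). In both genes Perthes rabbits 1, 3 and 5 were above every control, and rabbit 2 also was for *NDUFS5*, while rabbit 4 lay among the controls. *NDUFA13* had 0 to 2 counts in every library and was not tested.

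Complex II, succinate dehydrogenase, also works in the tricarboxylic acid cycle and is encoded wholly in the nucleus. All 5 of its listed genes were tested, and their median log2 fold change of 0.41 was the highest of the 5 complexes, although 0 were called. *SDHA*, the flavoprotein that oxidizes succinate, was at 195.4, 170.9, 202.1, 111.4 and 217.8 CPM in Perthes rabbits 1 to 5 and at 124.2, 115.1 and 118.2 CPM in the controls. Of the Perthes rabbits, 4 were above every control and rabbit 4 was below every control (log2 fold change 0.59, SE 0.23, adjusted p 0.107).

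The membrane anchor *SDHC* was at 85.1, 86.3, 85.7, 73.9 and 89.9 CPM against 65.3, 62.1 and 73.2 CPM. Here every Perthes rabbit was above every control, rabbit 4 only just (log2 fold change 0.33, SE 0.14, adjusted p 0.136). The exact two-sided permutation test over the 56 divisions of the 8 rabbits gave p = 0.0357 for *SDHC*. That is the smallest p this test can give here, as it doubles the smaller tail. This unadjusted value follows from the lack of overlap and adds nothing to it. Of all genes tested, 11.2% were higher and 13.9% lower without overlap. For *SDHA* the exact two-sided permutation test gave an unadjusted p of 0.143. The other anchor, *SDHD*, was at 64.3, 66.6, 65.2, 34.7 and 81.8 CPM against 46.3, 46.9 and 47.8 CPM (log2 fold change 0.41, SE 0.25, adjusted p 0.282), and rabbit 4 was again below all controls. A second entry with the description of *SDHD*, LOC100346169, was at 16.7, 15.5, 13.3, 8.30 and 14.5 CPM against 9.65, 9.84 and 10.7 CPM. Reads may be shared between both *SDHD* entries, so their split is uncertain. *SDHB*, the iron-sulfur subunit, was the exception in the complex, at 43.2, 40.7, 44.3, 37.9 and 52.7 CPM against 46.7, 40.1 and 40.1 CPM (log2 fold change 0.05, 95% interval -0.29 to 0.39).

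With Perthes rabbit 4 left out, 3 members were called higher, all in complex II, and 8.36% of all genes were called higher. *SDHA* then had a log2 fold change of 0.72 (adjusted p 0.0201), *SDHD* of 0.56 (adjusted p 0.0363) and the second *SDHD* entry of 0.57 (adjusted p 0.0447). Leaving out any other rabbit gave 0 calls among the members. Genes called higher in all were then 802 of 15212, 941 of 15232, 385 of 15195 and 351 of 15228 without Perthes rabbits 1, 2, 3 and 5. Without controls 1, 2 and 3 they were 73 of 15632, 0 of 15594 and 695 of 15605. Rabbit 4 was the one with the macrophage level nearest the controls and the highest chondrocyte level, and the part of cell composition in these differences was not tested.

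**Figure D2:**
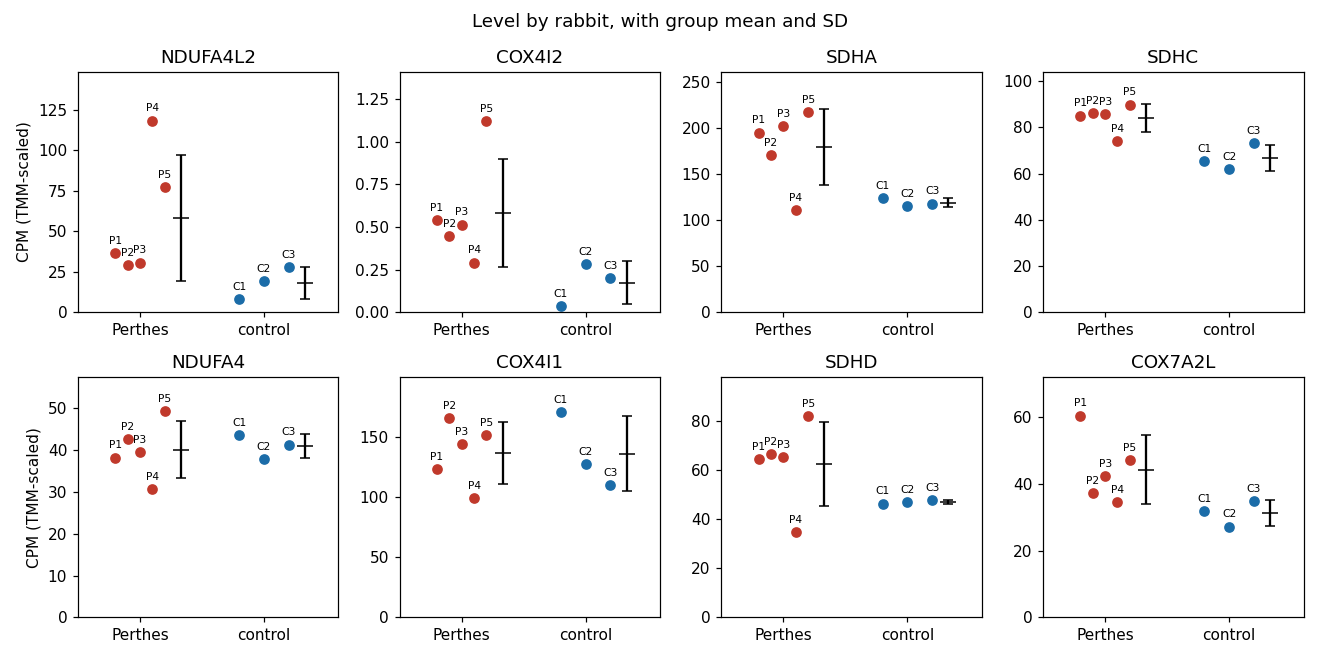
Level in CPM on the vertical axis, from 0, for 8 members in each rabbit (P Perthes, C control), with the group mean and SD beside the points. *NDUFA4L2*, *COX4I2* and *SDHC* have all Perthes points above all control points, *NDUFA4* and *COX4I1* do not, and rabbit P4 lies below the controls for *SDHA* and *SDHD*.

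Complex III, the cytochrome bc1 complex, had the median log2 fold change closest to 0 of the 5 complexes, -0.01 over 7 genes, with a range from -0.21 to 0.39. *UQCRC2*, a core protein and the gene with the highest CPM of the complex, was at 107.3, 126.6, 117.8, 72.4 and 128.7 CPM against 116.1, 86.8 and 87.4 CPM (log2 fold change 0.19, 95% interval -0.30 to 0.68). *UQCRQ*, a small subunit, was at 43.6, 36.6, 57, 30.6 and 52.5 CPM against 42.0, 29.0 and 29.8 CPM (log2 fold change 0.39, SE 0.24, adjusted p 0.29). *UQCRH*, the hinge protein next to cytochrome c1, had a log2 fold change of 0.18 with an interval from -0.24 to 0.60. In all 3 genes the groups overlapped.

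Complex IV, cytochrome c oxidase, had 16 of 19 genes tested, with a median log2 fold change of 0.27 and a range from -0.03 to 1.73. Its 15 positive values out of 16 included *COX7A2L*, a factor that joins respiratory complexes into supercomplexes, at 60.4, 37.1, 42.2, 34.5 and 47.0 CPM against 31.8, 27.2 and 34.7 CPM. *COX7A2L* was higher in 4 Perthes rabbits than in any control, and rabbit 4 lay just below control 3. Its log2 fold change was 0.50 (SE 0.21, adjusted p 0.131), and the exact two-sided permutation test gave an unadjusted p of 0.0714. *COX4I1*, the general isoform of the regulatory subunit 4 and the gene with the highest CPM of the complex, was at 123.1, 165.5, 144.4, 99.3 and 151.6 CPM against 170.9, 127.4 and 110.3 CPM. Its log2 fold change was 0.01, with an interval from -0.49 to 0.50.

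The 2 isoforms tied to low oxygen had the largest positive fold changes of all tested members, while their general partners were near 0. *NDUFA4L2*, a hypoxia-inducible relative of the complex IV subunit *NDUFA4*, was at 36.5, 29.0, 30.6, 118.4 and 77.3 CPM in the Perthes rabbits and at 8.04, 19.0 and 27.6 CPM in the controls. Every Perthes rabbit was above every control, rabbit 4 had the highest level and rabbit 2 lay close to control 3. The log2 fold change was 1.68 (SE 0.59, 95% interval 0.36 to 3.01), with an adjusted p of 0.0837 in edgeR and 0.0156 in DESeq2. It was 1.25 without Perthes rabbit 4 and 2.11 without control 3, neither of them called. *NDUFA4* itself was at 38.2, 42.6, 39.5, 30.7 and 49.4 CPM against 43.5, 37.8 and 41.3 CPM, with overlapping groups and a log2 fold change of -0.03 (95% interval -0.41 to 0.36).

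*COX4I2*, the alternative form of subunit 4 found in lung and induced by low oxygen, was far less abundant. It was at 0.54, 0.449, 0.514, 0.291 and 1.12 CPM in the Perthes rabbits, from 8 to 33 counts, and at 0.0357, 0.282 and 0.20 CPM in the controls, from 1 to 8 counts. The groups did not overlap, but rabbit 4 and control 2 had 8 counts each and were nearly equal. The log2 fold change was 1.73 (SE 0.65, 95% interval 0.26 to 3.20, adjusted p 0.103), and counting error alone is large at these levels. With *SDHC* and *NDUFA4L2*, *COX4I2* made up the 3 tested members in which the Perthes rabbits lay above the controls without overlap. That pattern held for 11.2% of all genes tested, and the opposite one, without overlap and lower, for 0 members and 13.9% of all genes.

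The log2 ratio of an isoform to its partner was compared within each rabbit for 4 pairs, with 0.5 added to each count. The ratio of *NDUFA4L2* to *NDUFA4* averaged 0.32 ± 1.02 (SD, n = 5) in the Perthes rabbits and -1.34 ± 0.97 (SD, n = 3) in the controls, and in rabbits 4 and 5 *NDUFA4L2* had more counts than *NDUFA4*. The ratio of *COX4I2* to *COX4I1* averaged -7.94 ± 0.56 (SD, n = 5) and -9.79 ± 1.61 (SD, n = 3). In both pairs the difference had an exact permutation p of 0.0357, or 0.0714 after adjustment over the 4 pairs, so neither passed once adjusted. These ratios rest on the same *NDUFA4L2* and *COX4I2* counts as the fold changes above.

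The muscle isoforms were near the limit of detection. *COX6A2* had 3 to 6 counts and *COX7A1* 1 to 6 counts per library, and neither was tested for a fold change. Their partners *COX6A1* (log2 fold change 0.15, 95% interval -0.33 to 0.63) and *COX7A2* (log2 fold change 0.25, 95% interval -0.40 to 0.89) were well detected. The ratio of *COX6A2* to *COX6A1* differed by -0.21 (exact permutation p 0.643) and that of *COX7A1* to *COX7A2* by 0.50 (exact permutation p 0.179). Skeletal muscle markers were low as well, with a summed level of 2.1 to 6.84 CPM in the Perthes rabbits and 3.86 to 27.0 CPM in the controls over the 11 of 16 markers listed, of which 7 were tested and 0 called. Control 3 held the 27.0 CPM, and no listed muscle marker was at 0 in every library. *COX6B1* had a log2 fold change of 0.05, and the testis isoform *COX7B2* had 0 to 3 counts.

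Complex V, the ATP synthase, held the most abundant members. It had 15 of 18 genes tested, a median log2 fold change of 0.13 and a range from -0.09 to 0.65, and 13 intervals within a 2-fold change. *ATP5F1B*, the catalytic beta subunit, was at 410.8, 495.1, 490.6, 353.4 and 505.7 CPM in the Perthes rabbits and at 523.9, 408.3 and 401.3 CPM in the controls. Its groups overlapped fully, and the log2 fold change was 0.02 with an interval from -0.43 to 0.47. The lowest p values of the complex came from *ATP5MC2*, which encodes the c subunit of the rotor ring, and *ATP5PB*, a subunit of the peripheral stalk. *ATP5MC2* was at 112.1, 111.1, 135.5, 105.2 and 136.6 CPM against 118.4, 89.0 and 89.2 CPM (log2 fold change 0.28, SE 0.17, adjusted p 0.298). *ATP5PB* was at 118.6, 78.5, 91.2, 69.0 and 105.2 CPM against 69.2, 68.8 and 83.8 CPM (log2 fold change 0.32, SE 0.20, adjusted p 0.307).

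Several complex V genes are listed more than once, and reads may be split between near-identical copies. *ATP5ME* had 6 to 10 counts under its own symbol, while a second entry of that description, LOC108178113, had 172 to 357. The extreme case was LOC100344965, an entry described as *ATP5PF*, with 447 and 171 counts in Perthes rabbits 1 and 2, 247 in control 3 and 0 in the other 5 libraries. Its log2 fold change of 0.65 had an interval from -4.12 to 5.42 and so no usable direction. The entry named *ATP5PF* was at 4.83 to 14.8 CPM in the Perthes rabbits and 6.92 to 12.8 CPM in the controls.

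The 8 members outside the complexes include the factors *COX10*, *COX11*, *COX15* and *COX17*, which make heme or deliver copper for complex IV, and the pyrophosphatases *PPA1*, *PPA2* and *LHPP*. None of the 8 was called, 7 of them lay between -0.09 and 0.39 in log2 fold change, and 6 intervals were within a 2-fold change. The other was *ATP4A*, the gastric proton pump, which shares the pathway description but is not part of the mitochondrial chain. *ATP4A* was at 0.0338, 7.08, 1.47, 1.13 and 0 CPM in the Perthes rabbits and at 5.65, 12 and 2.69 CPM in the controls (log2 fold change -1.80, 95% interval -4.61 to 1.01, adjusted p 0.35), and no other tested member had a lower fold change. Without Perthes rabbit 2 the *ATP4A* value was -3.37 and without control 2 it was -1.11, both uncalled.

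The members also differed between rabbits within the Perthes group. The median deviation of the 81 members from their control means was 0.36, 0.12, 0.09, -0.16 and 0.39 on the log2 scale in Perthes rabbits 1 to 5, and 0.08, -0.07 and -0.04 in controls 1 to 3. Rabbits 1 and 5 were thus high, rabbits 2 and 3 near the controls and rabbit 4 low. Rabbit 1 held the highest value of 34 members (42.0%) and rabbit 5 of 27 (33.3%), while rabbit 4 held the lowest value of 36 (44.4%). Over all genes tested these rabbits held the highest value of 22.6% and 7.66% and the lowest value of 13.6%, respectively. Complex II departed from this pattern, with medians of 0.45, 0.50, 0.40, -0.16 and 0.52 in Perthes rabbits 1 to 5, so that rabbits 2 and 3 were as high as 1 and 5.

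**Figure D3:**
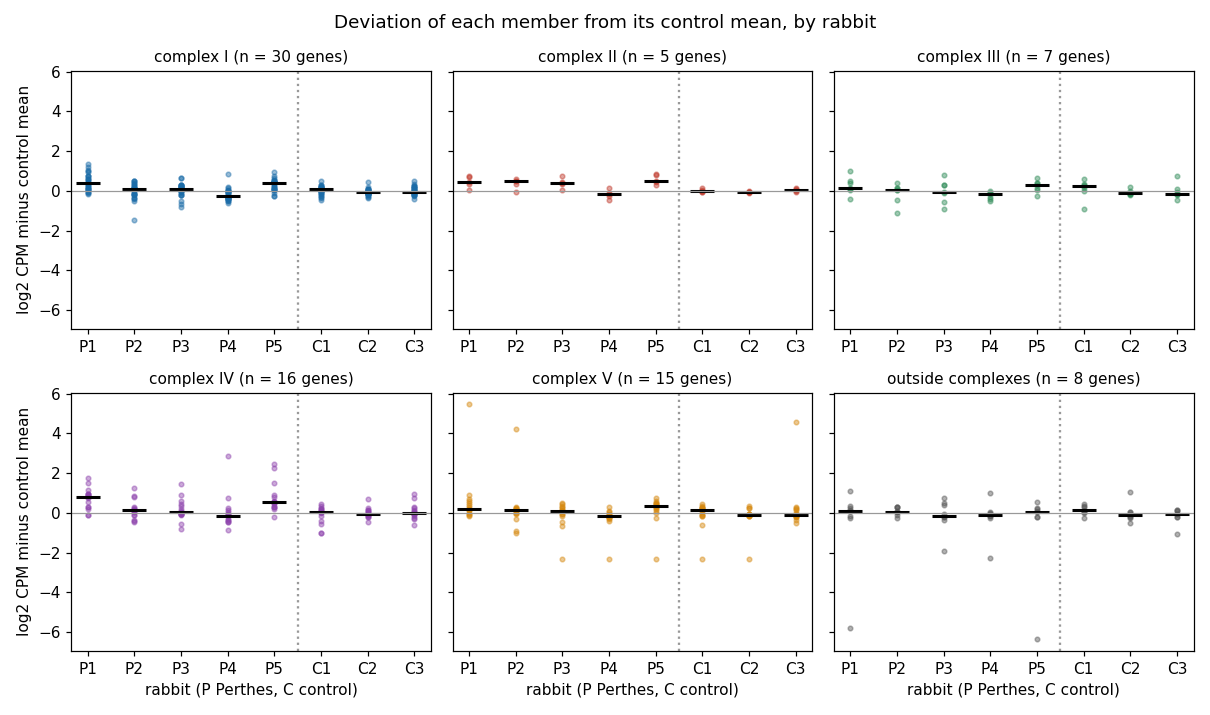
Each point is a tested member in 1 rabbit, as log2 CPM minus its control mean on the vertical axis, with the black dash at the median of the genes of that complex and rabbits on the horizontal axis. Medians in rabbits P1 and P5 lie above 0 in every complex, those of rabbit P4 lie below 0, and in complex II rabbits P1, P2, P3 and P5 sit at 0.40 to 0.52.

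Summed over all 88 members, the level was 3971.5, 3675.0, 3768.9, 2948.7 and 4332.4 CPM in Perthes rabbits 1 to 5 and 3700.1, 3083.8 and 3145.7 CPM in the controls. The groups overlapped, since rabbits 2 and 4 lay below control 1. Such a sum weighs the abundant genes, and complex V alone supplied 1221.4 to 1787.4 CPM of it in the Perthes rabbits and 1298.6 to 1624.2 CPM in the controls.

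Gene lists for the building and supply of the chain gave similarly few calls, where 6.21% of all genes tested were called higher and 8.86% lower. At those shares a count of 0 in the shortest lists says little. None was called in either direction among 14 assembly factors of complex I, 10 of complexes II and III, 19 of complex IV and 4 of complex V, with median log2 fold changes of -0.03, 0.15, 0.28 and 0.11. At an unadjusted p below 0.05, the counts were 2 higher for complex I assembly, 1 higher and 1 lower for complex IV assembly, and 0 for the other lists of assembly factors. In the tricarboxylic acid cycle list 0 of 21 genes were called (median 0.16), with a smallest edgeR adjusted p of 0.05, at the threshold. DESeq2 called 1 higher and 1 lower. So did edgeR with the size factors of DESeq2, with at least 10 counts in every library, or without Perthes rabbit 2. Library totals alone gave 1 lower and leaving out Perthes rabbit 4 gave 1 higher, while the other edgeR settings gave 0. Among 24 electron carriers, adenine nucleotide carriers and related genes 0 were called (median 0.17), and DESeq2 called 3 higher. The mobile electron carrier *CYCS*, cytochrome c, had a log2 fold change of 0.37 (SE 0.30). *ATP5IF1*, the inhibitor that stops the ATP synthase from running backwards, was at 5.57, 2.92, 1.06, 4.07 and 2.59 CPM in the Perthes rabbits and at 4.32, 9.10 and 9.61 CPM in the controls (log2 fold change -1.24, SE 0.47, adjusted p 0.104).

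Of 70 genes of the mitochondrial ribosome, which translates the mitochondrially encoded subunits, 1 was called higher, *MRPS6*, and 0 lower. That was 1.43%, against 15.1% of all genes tested, and the median log2 fold change was -0.02. *MRPS6* was at 15.7, 15.5, 13.9, 17.2 and 15.8 CPM against 11.1, 10.5 and 10.6 CPM (log2 fold change 0.54, SE 0.15, adjusted p 0.0379). The call was lost when any rabbit other than Perthes rabbit 1 was left out, with adjusted p values from 0.054 to 0.14, and with library totals alone (0.0839) or no low-count filter (0.0561). Among 26 genes of protein import and cristae 0 were called (median 0.11), with 4 higher and 0 lower at an unadjusted p below 0.05.

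Among regulators of mitochondrial biogenesis 1 of 17 tested genes was called (5.88%, against 15.1% of all genes tested). This was *NRF1*, nuclear respiratory factor 1, a transcription factor for many genes of the chain. *NRF1* was at 10.6, 15.7, 12.1, 12.9 and 10.9 CPM in the Perthes rabbits and at 24.7, 23.1 and 18.2 CPM in the controls, so that every Perthes rabbit was below every control. Its level fell by 0.82 on the log2 scale (SE 0.18, adjusted p 0.0214). Of the 81 oxidative phosphorylation members 0 were called in either direction, and a link between *NRF1* and their levels was not tested. The *NRF1* call was lost without Perthes rabbit 3, Perthes rabbit 5, control 1 or control 2, with adjusted p values of 0.0552, 0.0641, 0.0836 and 0.0876. The coactivators *PPARGC1A* (log2 fold change 0.57, SE 0.33) and *PPARGC1B* (0.23, SE 0.22), the mitochondrial DNA factor *TFAM* (-0.26, SE 0.31) and the nuclear receptor *ESRRA* (0.16, SE 0.35) were not called.

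Of 12 genes tied to the hypoxia-inducible factors and respiration, which include *NDUFA4L2* and *COX4I2*, 1 was called higher and 2 lower. These were 25% of the list, against 15.1% of all genes tested. DESeq2 called 3 higher and 2 lower, and at an unadjusted p below 0.05 in edgeR 5 were higher and 2 lower. *HIF1A*, the oxygen-regulated subunit of hypoxia-inducible factor 1, was at 543.7, 302.9, 234.4, 532.0 and 410.6 CPM in the Perthes rabbits and at 89.0, 143.6 and 234.3 CPM in the controls (log2 fold change 1.38, SE 0.39, adjusted p 0.0455). Rabbit 3 and control 3 were nearly equal, and the *HIF1A* call was lost without Perthes rabbit 1, 3, 4 or 5 or control 1 or 2, with adjusted p values from 0.051 to 0.149, and with library totals alone (0.0655). *BNIP3L*, a mitophagy receptor active in maturing red cells, fell by 1.28 on the log2 scale (SE 0.26, adjusted p 0.0173, and 0.0514 to 0.071 without Perthes rabbit 5, control 1 or control 2). *MXI1*, a MYC antagonist, fell by 1.16 (SE 0.28, adjusted p 0.0265, and 0.0619 to 0.10 without Perthes rabbit 3 or 5 or control 2 or 3). The erythroid markers were lower in the same rabbits, and their part in the *BNIP3L* value was not tested. *EPAS1* (log2 fold change 0.16, SE 0.26), *PDK1* (-0.09, SE 0.24) and *LONP1* (0.01, SE 0.34) were not called.

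Glycolysis, the oxygen-independent route to ATP, had 1 of 21 genes called higher and 2 lower, with a median log2 fold change of 0.57. The share called was 14.3%, near the 15.1% of all genes tested. DESeq2 called 3 higher and 2 lower, and at an unadjusted p below 0.05 in edgeR 7 were higher and 2 lower. *ENO2*, an enolase, was at 9.90, 10.7, 9.03, 50.2 and 27.1 CPM against 1.36, 2.68 and 4.72 CPM (log2 fold change 2.87, SE 0.73, adjusted p 0.0314, and 0.0679 to 0.117 without Perthes rabbit 5, control 1 or control 2). *HK3*, a hexokinase of myeloid cells, fell by 2.68 on the log2 scale (SE 0.53, adjusted p 0.0159, and 0.0598 and 0.0519 without control 1 and control 2). Without control 1 the *HK3* log2 fold change was -1.64. *SLC16A1*, a lactate carrier, fell by 1.53 (SE 0.38, adjusted p 0.0299, and 0.068 to 0.0941 without Perthes rabbit 3 or 5 or any 1 control). Rabbit 4 had the lowest summed level of oxidative phosphorylation members, 2948.7 CPM, and the highest summed level of glycolysis genes, 9752.1 CPM against 3870.3 to 6016.7 CPM in the controls. The 2 sums did not move in opposite directions in Perthes rabbit 5. It had the highest member sum, 4332.4 CPM, and a glycolysis sum of 7920.0 CPM, also above every control. Glycolysis sums in Perthes rabbits 1, 2 and 3 were 5028.5, 4469.6 and 5200.0 CPM, within the control range. Rabbit 4 also had the highest summed chondrocyte markers, 158933 CPM, and fibroblast markers, 69454 CPM, and the part of these cells was not tested. Neutrophil markers were also lower in the Perthes rabbits, and their part in the *HK3* value was not tested.

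The vacuolar proton pump genes set aside from the same pathway description gave other counts than the mitochondrial members. This pump acidifies lysosomes and, in osteoclasts, the bone surface. Of its 19 tested genes 7 (36.8%) were called higher and 0 lower, against 6.21% and 8.86% of all genes tested. Their median log2 fold change was 0.81. *ATP6AP1*, an accessory subunit, was at 244.6, 186.8, 255.4, 145.9 and 307.6 CPM against 100.4, 101.2 and 108.4 CPM (log2 fold change 1.14, SE 0.25, adjusted p 0.0206). *ATP6V1H* (log2 fold change 1.77, adjusted p 0.0247) and *ATP6V0E1* (0.85, adjusted p 0.0293) were also called. Adjusted p values were 0.0519 to 0.0838 for *ATP6AP1* without Perthes rabbit 3, control 1 or control 2. Without Perthes rabbit 3 or 5 or any 1 control they were 0.0524 to 0.103 for *ATP6V1H* and 0.056 to 0.117 for *ATP6V0E1*. The number of pump genes called was 4 without Perthes rabbit 1, 11 without Perthes rabbit 4, 1 without Perthes rabbit 5, 2 without control 3, and 0 without Perthes rabbit 3, control 1 or control 2. Summed osteoclast markers were at 2945.7 to 5929.2 CPM in the Perthes rabbits and 1391.9 to 2509.6 CPM in the controls, with 2 of 10 called higher. That list includes *ATP6V0D2*, itself a gene of this pump, so the lists overlap. Summed macrophage markers were also higher, except in rabbit 4, at 1025.7 CPM within the control range of 882.9 to 1729.2 CPM. The part of these cells in the pump values was not tested.

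**Figure D4:**
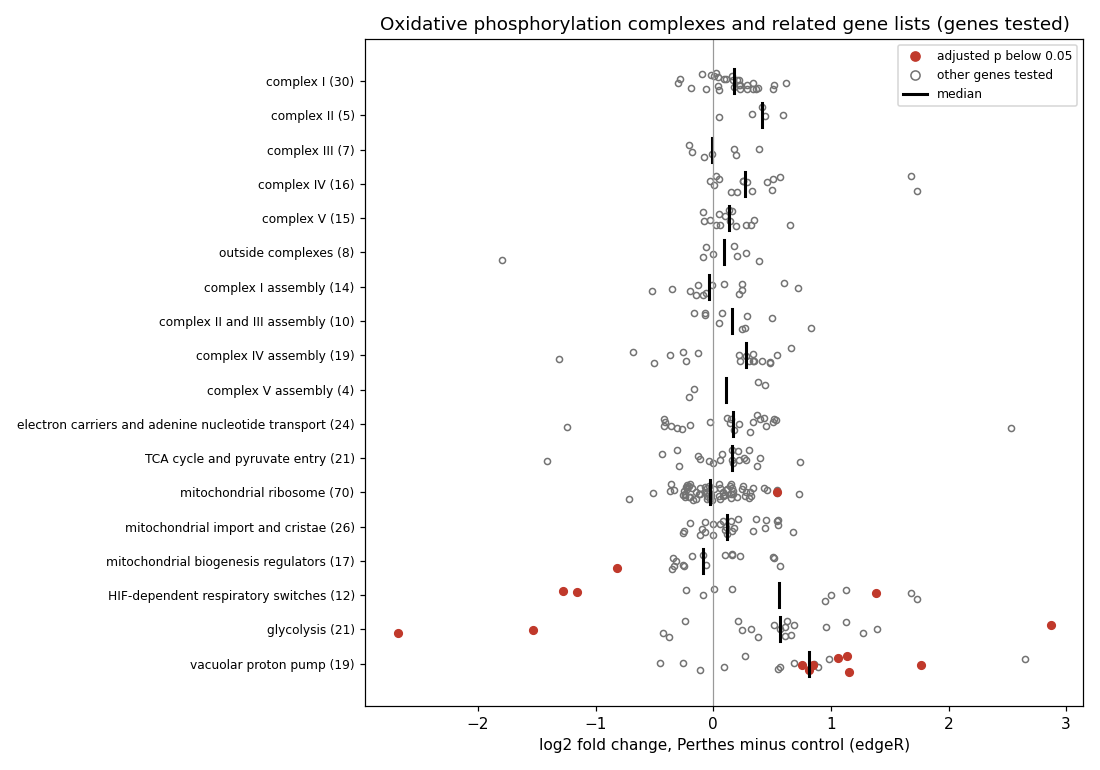
Log2 fold change (Perthes minus control, edgeR) on the horizontal axis for every tested gene of the complexes and of the related lists, with the number of genes in parentheses. Filled points have an adjusted p below 0.05 and black bars are medians, and the complexes hold 0 filled points where the vacuolar proton pump holds 7.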

How the data were processed

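The authors filtered reads with SOAPnuke, mapped them with HISAT2 2.0.4, used RSEM 1.1.17 and HTSeq 1.99.2 for quantification, as the submitters' processing notes list, and deposited expected counts per gene without normalization. Up to 10.7% of a library's values were not whole, and they were rounded. Another 8 per-sample columns repeat those used and were left out. Columns with annotation gave the pathway description. Counts from 26757087 to 29461482 per library leave the variation between rabbits as the main limit for well-counted genes.

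Normalization by TMM, the filterByExpr filter and the quasi-likelihood test were those of edgeR 4.0.16 (R 4.3.3), on 5 Perthes and 3 control libraries and Benjamini-Hochberg adjustment over all 15305 genes tested. DESeq2 1.42.0 was the other tool. Standard errors were the fold change divided by the root of the F statistic. Methods were tested on simulated data. Single genes and isoform ratios were compared by exact two-sided permutation, with the smaller tail doubled, whose smallest p is 0.0357. The adjustment over isoform pairs and the t quantiles of the intervals came from scipy 1.17.1. The edgeR and DESeq2 p-values set a group difference against the variation between the rabbits sampled. Those of the permutation test rank the observed division among all divisions of the rabbits.

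The members, lists and rules were chosen with earlier results of these data known. Named were the highest-CPM gene of complexes I, III, IV and V and, as none was called, its 2 genes of lowest p, all of complex II, the listed isoforms, the largest rise and fall, up to 3 called genes a list and direction, and fixed regulators. 1 gene under this rule is not reported here. Other genes were picked after their values were seen. Alternatives were other scaling, filters, thresholds, DESeq2, a replicate block and leaving out each rabbit. Control 3 carries that number in its code and another in its title. Gene IDs of 83 members matched RefSeq's mOryCun1.1 gene table. Levels were not compared per gene length, as no lengths were used here.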

Additional observations from a re-analysis of the deposited data

Results flagged for a closer look

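Within the 5 Perthes rabbits, 42 named genes were tested for a single value far from the rest by Dixon's ratio, the gap to the nearest rabbit divided by the range of the group on the log2 scale, against a critical value of 0.71. In 3 genes a rabbit passed it, and chance flags about 1 in 20 groups. *SDHC* was lowest in Perthes rabbit 4, at 73.9 CPM where the nearest rabbit had 85.1 CPM (ratio 0.721). *SDHD* was lowest in the same rabbit, at 34.7 CPM against 64.3 CPM in the nearest (ratio 0.719). *BNIP3L* was highest in Perthes rabbit 2, at 229.9 CPM against 132.8 CPM in the nearest (ratio 0.727).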

How the results depend on the processing

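No member was called lower under any alternative run, and 0 were called higher except with DESeq2 (1) and without Perthes rabbit 4 (3), so leaving out each rabbit gave from 0 to 3 calls. Without control 2, 0 of all 15594 genes tested were called in either direction, so a count of 0 members says little there. The main run did not treat same-numbered rabbits as pairs. Their correlations were -0.317, 0.161 and -0.238, and those of rabbits with different numbers ran from -0.314 to 0.435. So few values cannot settle whether rabbits were paired. With the replicate block 0 members and 0 of all genes were called, with a median member log2 fold change of 0.19. That median was 0.10 with library totals alone, where all genes had -0.06, and 0.08 to 0.25 when each rabbit was left out, 0.08 without Perthes rabbit 1 and 0.25 without rabbit 4. The vacuolar proton pump had 12 genes called higher with DESeq2, 2 with library totals alone and 0 with the replicate block. Over 42 named genes and 586 alternative values, 488 kept direction and side of the threshold, 62 lost a call, 4 gained one, 32 changed sign without being called and 0 reversed a call. The calls of *NRF1*, *HIF1A*, *BNIP3L*, *MXI1*, *ENO2*, *HK3*, *SLC16A1*, *MRPS6*, *ATP6AP1*, *ATP6V1H* and *ATP6V0E1* were lost under the replicate block, with adjusted p values from 0.115 to 0.315. With library totals alone those of *HIF1A*, *MRPS6* and *ATP6V0E1* were lost (0.0655, 0.0839 and 0.0631). With the replicate block, Perthes rabbits 4 and 5 have no control of the same number. They therefore add nothing to the group difference there, which rests on rabbits 1, 2 and 3 of each group. The cause of the changes in the other settings was not tested.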
